A study of Mus musculus with 9 samples.

Results

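The 8 endodermal lineage transcription factors Gata4, Gata6, Hnf4a, Hnf4g, Foxa1, Foxa2, Foxa3 and Pdx1 were followed in 9 whole pancreatic tumors of KPC mice. They were chosen by name, each symbol matched 1 Ensembl gene, and they made up 8 of 54453 rows in the table of estimated counts. All 8 passed the filter on low counts, and 16169 genes were tested in all. Of the tumors, 5 were labelled Scrib null, with the genotype written KPF/+CSF/F, and 4 were labelled Scrib WT, written KPF/+C. The series set these against each other to ask what differs when the polarity scaffold Scrib is targeted in this model. The tumor-driving KPC alleles are written in both genotypes, so the controls carry them too. The labels do not spell the letters out, name the promoter that drives a Cre, or give age. Each tumor has its own number, used here after the group name. Whether every tumor grew in its own animal is not stated, and the p-values here cover only sample-to-sample spread, part of which may be technical.

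In the embryo these factors turn gut endoderm into stomach, liver, pancreas and intestine. FOXA proteins are pioneer factors that open chromatin, GATA4 and GATA6 are zinc finger factors that act beside them, HNF4A and HNF4G are nuclear receptors that hold epithelial identity, and PDX1 is the homeodomain factor of the pancreas and duodenum. In pancreatic cancer, GATA6 and HNF4A are best known as markers of the classical, gastrointestinal-like state of the tumor cells.

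Estimated counts summed to between 10145830 and 27596832 per tumor. Scrib, the targeted gene, had 102.2, 53.8, 55.4, 53.2 and 36.9 CPM (counts scaled to the TMM-adjusted library size) in null tumors 7, 14, 15, 18 and 23. It had 88.5, 44.1, 62.0 and 87.4 CPM in WT tumors 2, 3, 6 and 9. The groups overlapped, and null 7 had the highest Scrib level of all 9 tumors. The means were 60.3 ± 24.6 CPM in the null group and 70.5 ± 21.5 CPM in the WT group (SD, n = 5 and 4; edgeR adjusted p = 0.712). Gene-level counts do not show which exons were read, so null and WT below mean tumors labelled so, null 7 included. The tissue label fits a tumor rich in epithelium: all 11 epithelial markers passed the filter, with summed levels of 7545 to 13806 CPM in null tumors and 8605 to 12380 CPM in WT tumors. Acinar enzyme messages, which define the normal exocrine pancreas, summed to 7.63 to 273.7 CPM in null tumors and 19.8 to 367.3 CPM in WT tumors. Non-epithelial markers (macrophages, neutrophils, lymphocytes, fibroblasts, endothelium, pericytes) had a mean level of 1.89 to 4.09 log2 CPM in null tumors and 4.29 to 4.82 log2 CPM in WT tumors (exact two-sided permutation p = 0.0159). In whole tumors, fewer cells of a type and less RNA per cell cannot be told apart.

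Promoter sequence bears on which starts a gene-level count adds together and on which of these factors' own recognition letters lie there. RefSeq (GRCm38.p6) start windows, from 250 bases before to 50 bases after a start, were found for 5 of the 8 genes, and there were 8 windows because Hnf4a has 2 starts and Foxa2 has 3. Of these, 3 windows held a match and are printed, together with the downstream Hnf4a start. Both Hnf4a starts are shown because they lie 40.3 kb apart and the deposited table adds their transcripts into 1 value. A Foxa2 start is shown because Foxa2 had the profile over tumors nearest to that of Hnf4a among the other factors. The Foxa1 start is shown because, among the factors with a window, Foxa1 lay farthest from its nearest other factor. That was Pdx1, at a root mean square difference of 1.10 in centred log2 CPM. Hnf4g, without a window, lay 1.23 from its nearest. Capitals mark matches, on either strand, to the letters AGATAA for the GATA factors or TGTTTAC for the FOX factors.
Hnf4a, upstream start, chr2:163506607-163506906, plus strand: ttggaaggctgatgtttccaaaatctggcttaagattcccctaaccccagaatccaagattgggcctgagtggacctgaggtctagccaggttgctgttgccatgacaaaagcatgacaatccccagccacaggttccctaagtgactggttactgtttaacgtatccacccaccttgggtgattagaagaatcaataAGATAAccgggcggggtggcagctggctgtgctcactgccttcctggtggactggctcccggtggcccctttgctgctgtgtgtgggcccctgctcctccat
Hnf4a, downstream start, chr2:163546905-163547204, plus strand: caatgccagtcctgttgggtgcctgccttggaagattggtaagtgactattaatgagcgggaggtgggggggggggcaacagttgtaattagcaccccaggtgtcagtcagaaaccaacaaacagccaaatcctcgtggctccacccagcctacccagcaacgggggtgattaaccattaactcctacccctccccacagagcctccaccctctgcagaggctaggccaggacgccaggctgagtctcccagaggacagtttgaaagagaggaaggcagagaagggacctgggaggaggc
Foxa2, start 3, chr2:148045415-148045714, minus strand: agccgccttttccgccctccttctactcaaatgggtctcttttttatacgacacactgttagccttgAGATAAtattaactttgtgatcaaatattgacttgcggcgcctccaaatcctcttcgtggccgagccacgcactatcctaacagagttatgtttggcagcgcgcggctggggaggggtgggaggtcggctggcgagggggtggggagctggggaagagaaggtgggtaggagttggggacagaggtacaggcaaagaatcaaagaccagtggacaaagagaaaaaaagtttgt
Foxa1, chr12:57546062-57546361, minus strand: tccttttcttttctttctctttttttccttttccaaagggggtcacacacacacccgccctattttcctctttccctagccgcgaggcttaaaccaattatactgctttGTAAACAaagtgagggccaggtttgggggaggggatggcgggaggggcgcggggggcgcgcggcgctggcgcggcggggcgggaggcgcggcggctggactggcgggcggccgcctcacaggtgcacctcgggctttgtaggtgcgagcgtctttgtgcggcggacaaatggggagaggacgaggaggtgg
The upstream Hnf4a start had the GATA letters at position -52, counted back from the start. The downstream one held no match. In the Foxa2 window the GATA letters began at -183, and in the Foxa1 window the FOX letters lay on the opposite strand at -141. No matches overlapped. The GATA letters were in 2 of the 8 windows and in 11.2% of 32851 promoter windows of the same length, which leaves little to read from so few windows. The FOX letters were in 3.65% of all windows. CAAAGTCCA, searched for HNF4, was in 0.475% of all windows and in none of the 8. The other windows, for the first and second Foxa2 starts, Foxa3 and Pdx1, held none of these letters. A match is a description of letters and not of binding.

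None of the 8 factors differed between the groups in the fit across all genes, where 2 of 16169 genes (0.0124%) passed the threshold of an adjusted p under 0.05 (edgeR quasi-likelihood test, Benjamini-Hochberg). With all 9 tumors and no covariate none had an edgeR p under 0.05 without adjustment, against 17.7% of all genes, and for none were the groups free of overlap, against 6.91%. DESeq2, which called 3.39% of 18418 genes (1.15% higher and 2.24% lower), called none of the factors. It gave an adjusted p to 7 of the factors, from 0.471 to 0.912, and gave no p to Foxa1. The log2 fold change, null over WT, was negative for 7 factors and positive for Pdx1. The median was -0.28 beside -0.03 over all genes, of which 52.2% were negative. A p that misses the threshold does not show that the groups are alike. The spread within a group depended on the factor. The SD of log2 CPM was 2.14 for Gata6, 1.05 for Hnf4a, 1.14 for Foxa2 and 0.85 for Gata4 in the null group, against 0.54, 0.45, 0.42 and 0.73 in the WT group. It was 1.18 for Hnf4g, 0.76 for Foxa1, 0.67 for Foxa3 and 0.23 for Pdx1 in the null group, against 2.66, 1.80, 0.85 and 0.49 in the WT group. The plot of CPM by tumor shows the values behind these.

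**Figure D1:**
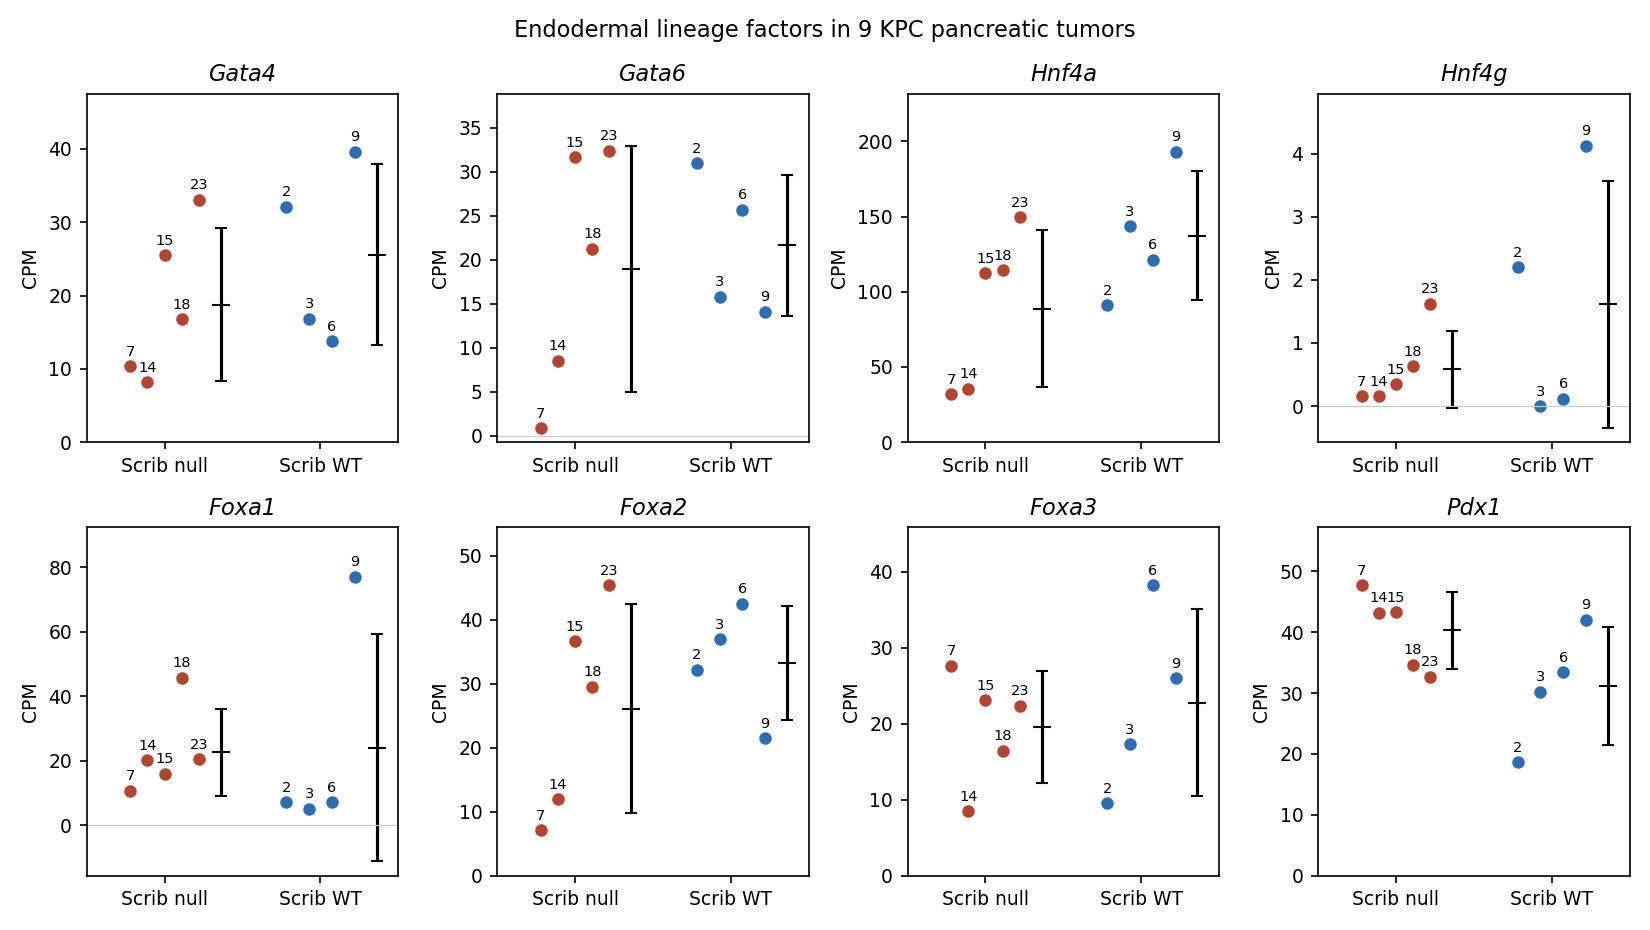
Level of each factor in CPM (vertical axis, 1 panel per gene) in Scrib null tumors (left, red) and Scrib WT tumors (right, blue). Each point is a tumor with its number, and the black bar is the mean with its SD (n = 5 and 4). Null tumors 7 and 14 lie low for Gata4, Gata6, Hnf4a and Foxa2, and tumor WT 9 lies far above all others for Foxa1 with 77.1 CPM.

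Hnf4a (chromosome 2, 163506808 to 163572910, GRCm38), the receptor that keeps hepatic and gut epithelium differentiated, had 31.8, 35.7, 112.4, 114.3 and 149.7 CPM in null tumors 7, 14, 15, 18 and 23. In WT tumors 2, 3, 6 and 9 it had 90.9, 143.6, 121.4 and 193.1 CPM. Null 7 and null 14 stood below every other tumor, while the remaining null tumors lay inside the WT range. The means were 88.8 ± 52.4 CPM in the null group and 137.3 ± 43.0 CPM in the WT group (SD, n = 5 and 4), a log2 fold change of -0.63 (SE 0.46, edgeR adjusted p = 0.471). The 95% interval of the fold ran from 0.321 to 1.30 and so held both directions.

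Hnf4g (chromosome 3, 3508030 to 3658052), its paralog in gut epithelium, was close to the limit of detection. It had 0.151, 0.158, 0.342, 0.633 and 1.62 CPM in null tumors 7, 14, 15, 18 and 23, against 2.20, 0, 0.115 and 4.13 CPM in WT tumors 2, 3, 6 and 9. The largest of these came from 95 estimated counts in WT 9, and 4 of the other tumors had 3 counts or fewer. For WT 3, 0 counts allow up to 0.257 CPM (3 counts, counting error only). The groups overlapped fully and the log2 fold change of -1.45 had an SE of 1.14 (edgeR adjusted p = 0.505). Per kilobase of exon, Hnf4a exceeded Hnf4g in all 9 tumors.

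Gata6 (chromosome 18, 11052064 to 11085635), the GATA factor most tied to the classical state, had 0.858, 8.52, 31.6, 21.2 and 32.4 CPM in null tumors 7, 14, 15, 18 and 23. The WT tumors 2, 3, 6 and 9 had 30.9, 15.8, 25.7 and 14.1 CPM. Null 7 held 17 estimated counts of Gata6 where no other tumor held fewer than 162. Null 23 and null 15, in contrast, had the most Gata6 of all 9. The group means of 18.9 ± 14.0 CPM in the null group and 21.6 ± 8.05 CPM in the WT group were close, with a log2 fold change of -0.19 (SE 0.72, edgeR adjusted p = 0.909), which was 0.13 without null 7 and 0.04 without WT 2.

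Gata4 (chromosome 14, 63198922 to 63271692), which shares DNA sites with Gata6 and specifies stomach and duodenum, had 10.3, 8.15, 25.5, 16.8 and 33.1 CPM in null tumors 7, 14, 15, 18 and 23. It had 32.1, 16.8, 13.8 and 39.6 CPM in WT tumors 2, 3, 6 and 9. Null 14 and null 7 were again lowest, and WT 9 was highest. The log2 fold change was -0.45 (SE 0.46, edgeR adjusted p = 0.609), and it was -0.15 without WT 9. Per kilobase, Gata4 exceeded Gata6 in 8 tumors, the exception being WT 6.

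The 3 FOXA factors did not share 1 order of tumors. Foxa2 (chromosome 2, 148042877 to 148046969) takes part in pancreas and liver formation. It had 7.06, 11.9, 36.7, 29.6 and 45.4 CPM in null tumors 7, 14, 15, 18 and 23. In WT tumors 2, 3, 6 and 9 it had 32.2, 36.9, 42.5 and 21.5 CPM. As for Hnf4a, null 7 and 14 were lowest, but the highest was null 23. Its log2 fold change was -0.35 (SE 0.48, edgeR adjusted p = 0.713).

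Foxa1 (chromosome 12, 57540628 to 57546916), its close relative, had 10.7, 20.2, 16.1, 45.8 and 20.5 CPM in null tumors 7, 14, 15, 18 and 23. Tumors WT 2, 3 and 6 had 7.16, 5.15 and 7.16 CPM, and WT 9 had 77.1 CPM. Every null tumor was thus above 3 of the 4 WT tumors and below WT 9. The log2 fold change of -0.10 (SE 0.79, edgeR adjusted p = 0.957) was 1.80 without WT 9 (edgeR unadjusted p = 0.00366, adjusted p = 0.238). The difference of mean log2 CPM, which weights each tumor equally, was 0.74 in all tumors (exact two-sided permutation p = 0.405), with the opposite sign to the fold change. Foxa3 (chromosome 7, 19013284 to 19023538), best known from liver, had 27.6, 8.47, 23.0, 16.4 and 22.4 CPM in null tumors 7, 14, 15, 18 and 23, against 9.55, 17.3, 38.2 and 26.0 CPM in WT tumors 2, 3, 6 and 9. Null 7, so low in Foxa2, had the second highest Foxa3 level. The log2 fold change of Foxa3 was -0.22 (SE 0.42, edgeR adjusted p = 0.798), and 0.15 without WT 6.

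Which FOXA gene led therefore changed from tumor to tumor, as the stacked plot of FOXA levels shows. In CPM per kilobase of exon, Foxa2 led in 4 tumors, null 15, null 23, WT 2 and WT 3, where it gave 48.9% to 66.5% of the FOXA sum. Foxa1 led in 3, with 39.8% in null 14, 40.1% in null 18 and 51.5% in WT 9. Foxa3 led in 2, with 68.6% in null 7 and 48.3% in WT 6, where Foxa2 gave 46.2%. The FOXA sum itself was 27.4 ± 9.35 CPM per kilobase in the null group and 32.5 ± 11.4 in the WT group (SD, n = 5 and 4). It was lowest in null 14, at 15.3, and highest in WT 9. The paralogs share little sequence: Foxa1 and Foxa2 transcripts had 8 31-mers in common, 0.243% of those of Foxa1 and 0.338% of those of Foxa2, and no other pair among the 8 factors had any.

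**Figure D2:**
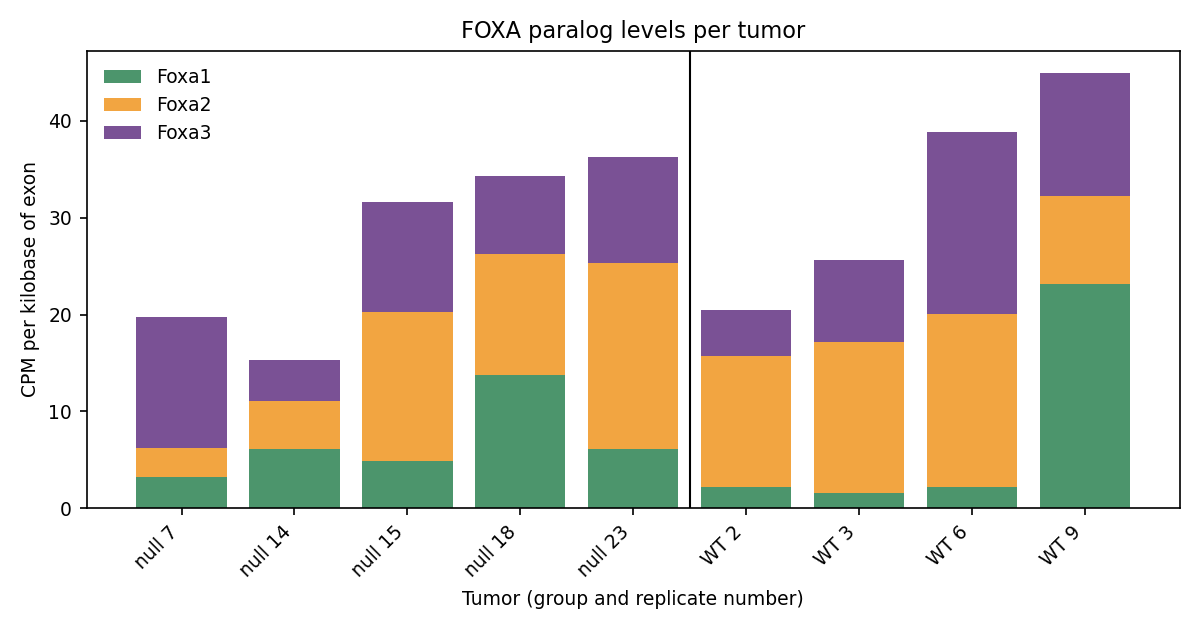
Stacked levels of Foxa1, Foxa2 and Foxa3 in CPM per kilobase of exon (vertical axis) in each tumor, Scrib null tumors left of the line and Scrib WT tumors right of it. Foxa1 is the largest part in null 14, null 18 and WT 9, and Foxa3 in null 7 and WT 6.

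Pdx1 (chromosome 5, 147269959 to 147275848) was the 1 factor of the 8 with a positive fold change. Its SD of log2 CPM was the smallest in the null group and with both groups' deviations pooled. In the WT group Foxa2 and Hnf4a had smaller SDs than Pdx1. The labels do not say whether the line carries Pdx1 sequence in a transgene, so these counts are not known to come from the endogenous gene alone. It had 47.7, 43.2, 43.3, 34.7 and 32.7 CPM in null tumors 7, 14, 15, 18 and 23, against 18.6, 30.2, 33.4 and 42.1 CPM in WT tumors 2, 3, 6 and 9. Null 7, lowest for Gata6, Hnf4a and Foxa2, had the most Pdx1. The means were 40.3 ± 6.36 CPM in the null group and 31.1 ± 9.68 CPM in the WT group (SD, n = 5 and 4), a log2 fold change of 0.37 (SE 0.25, edgeR adjusted p = 0.430). The 95% interval of the fold ran from 0.886 to 1.89. The antisense transcript Plut overlaps Pdx1, and the sources used here do not say whether counting used strand. Plut had 3.46 to 8.68 CPM in null tumors and 4.82 to 22.5 CPM in WT tumors.

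Per kilobase of exon the mean levels over 9 tumors ran Hnf4a, Pdx1, Foxa2, Foxa3, Foxa1, Gata4, Gata6 and Hnf4g, at 22.9, 16.8, 12.4, 10.3, 7.01, 5.58, 3.09 and 0.395 CPM per kilobase. Only the last step, Gata6 over Hnf4g, was larger than the SD of both neighbours, and it held in 9 of 9 tumors. Hnf4a was above Pdx1 in 7 of 9 tumors, and the exceptions were null 7 and null 14. Pooling both groups' deviations from their own mean, the SD of log2 CPM was 1.95 for Hnf4g, 1.66 for Gata6 and 1.31 for Foxa1, more than in at least 90.9% of tested genes for each. For Pdx1 it was 0.37, above 26.9% of genes, and for Gata4, Hnf4a, Foxa2 and Foxa3 it was 0.75 to 0.91. The median gene had 0.53.

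**Figure D3:**
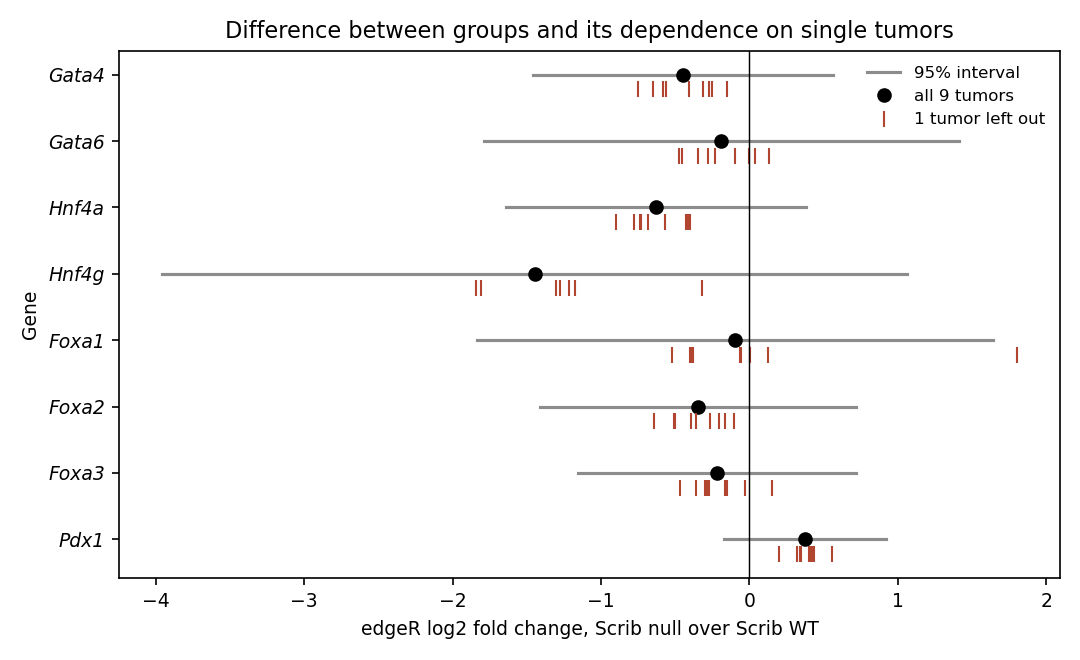
Log2 fold change, Scrib null over Scrib WT (horizontal axis), for each factor (rows). Dots are values over all 9 tumors, grey lines are 95% intervals from the edgeR fit, and red ticks are values with 1 tumor left out. All 8 grey lines cross 0, and the tick of Foxa1 at 1.80 is the fit without WT 9.

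Read tumor by tumor, 2 of the null tumors stood apart from the other 3. Null 7 was the lowest of 9 tumors for Gata6, Hnf4a and Foxa2 and second lowest for Gata4. Null 14 was lowest for Gata4 and Foxa3 and second lowest for Gata6, Hnf4a and Foxa2. The other 3 null tumors were never among the lowest 2 for any factor. WT 9 was highest for 4 factors, Gata4, Hnf4a, Hnf4g and Foxa1, yet above only null 7 and null 14 for Gata6 and Foxa2. WT 2 was lowest for Pdx1 and second lowest for Foxa3. The heat map of centred levels sets this beside the marker lists.

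**Figure D4:**
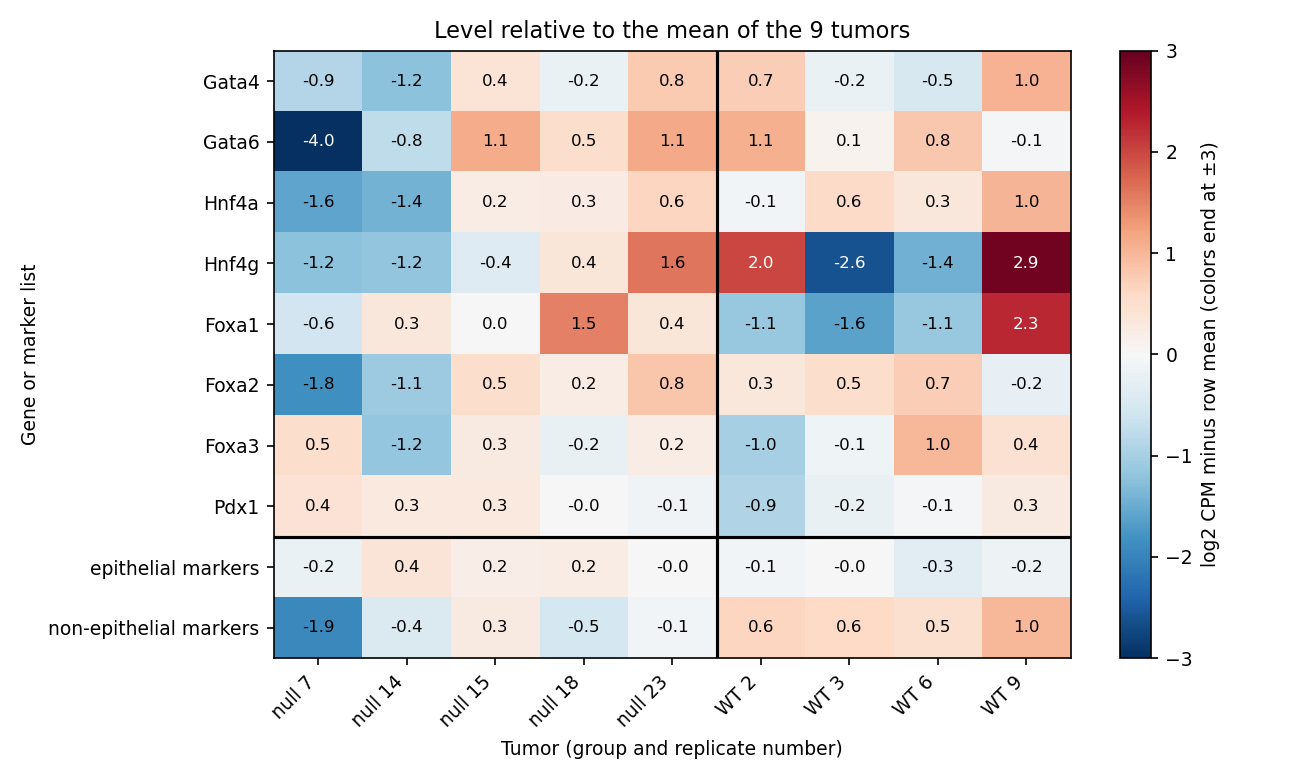
Log2 CPM of each factor, and the mean level of the epithelial and the non-epithelial marker lists (rows), minus the mean of the 9 tumors, in each tumor (columns, Scrib null left of the line, Scrib WT right). Red is above and blue below the row mean, with colors ending at 3 in either direction. Gata4, Gata6, Hnf4a and Foxa2 are blue together in null 7 and null 14, and the non-epithelial row is lowest in null 7, at 1.89 log2 CPM.

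The epithelial list stood at 8.88 log2 CPM in null 7, the second lowest of the 9 tumors, and at 9.47 in null 14, the highest, against 8.74 to 9.08 in WT tumors. Set against that list, the log2 ratio differed between null and WT tumors by -1.11 for Hnf4a, -1.14 for Gata6, -0.88 for Foxa2 and -0.77 for Gata4 (exact two-sided permutation p from 0.143 to 0.341). Null 7 had the lowest non-epithelial level, 1.89 log2 CPM, and null 14 had 3.38, within the range of the other null tumors. With the non-epithelial level as a covariate the log2 fold changes were 0.44 for Hnf4a, 1.83 for Gata6, 0.67 for Foxa2 and 0.45 for Gata4 (edgeR adjusted p from 0.629 to 0.784), with an unadjusted edgeR p of 0.028 for Gata6. The groups did not overlap in that level, which was at most 4.09 log2 CPM in null tumors and at least 4.29 in WT tumors. Group and level therefore cannot be told apart in this fit. Null 7 is also male, as are null 18 and WT 3 by Xist and Y-linked transcripts. Among the females alone, 3 null and 3 WT tumors, the difference in mean log2 CPM was -0.61 for Hnf4a, -0.12 for Gata6, -0.19 for Foxa2 and -0.45 for Gata4. The labels also give each tumor a running number whose meaning is not stated, and null 7, 14 and 15 and WT 2 have the lower ones. Among the tumors with the higher ones, 2 null and 3 WT, the difference was -0.20 for Hnf4a, 0.55 for Gata6, 0.18 for Foxa2 and 0.17 for Gata4. Among those with the lower ones, 3 null and 1 WT, it was -0.85 for Hnf4a, -2.28 for Gata6, -1.14 for Foxa2 and -1.31 for Gata4. For Pdx1 the difference was -0.05 among the higher numbers and 1.26 among the lower ones, where WT 2 was the only WT tumor. Over all tumors the Pdx1 difference was 0.42 in log2 CPM. As a log2 ratio to the epithelial list it was 0.15 (exact two-sided permutation p = 0.659). Beyond these values, the part of epithelial and non-epithelial cells, sex and running number was not tested.

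Some of these factors are also made outside tumor epithelium: Gata4 and Gata6 in mesothelium, Gata6 in large peritoneal macrophages, Pdx1 in beta cells, and Hnf4a and Foxa3 in liver and intestine. All 8 mesothelial markers passed the filter and summed to 243.1 to 649.5 CPM in null tumors and 370.9 to 1512 CPM in WT tumors. Msln, which pancreatic tumor cells also make, gave most of that sum. The defining mesothelial gene Wt1 had 0.404 to 29.8 CPM in null tumors and 4.64 to 19.9 CPM in WT tumors. Timd4, a defining marker of peritoneal macrophages, did not exceed 0.821 CPM in null tumors or 1.91 CPM in WT tumors. That list, with 7 of 7 genes past the filter, summed to 24.9 to 166.1 CPM in null tumors and 43.0 to 326.7 CPM in WT tumors. The highest levels in it were those of F5, up to 102.6 CPM in null tumors and 256.4 CPM in WT tumors. Alox15 came next, up to 35.8 CPM in null tumors and 149.8 CPM in WT tumors. Islet markers, 7 of 11 past the filter, summed to 2.98 to 79.0 CPM in null tumors and 0.693 to 69.7 CPM in WT tumors, and in null 7, the tumor with most Pdx1, their mean level was -1.40 log2 CPM. Albumin, the defining hepatocyte message, was at most 1.19 CPM in null tumors and 2.77 CPM in WT tumors, and the hepatocyte genes, 9 of 16 past the filter, summed to 8.88 to 54.4 CPM in null tumors and 16.5 to 193.1 CPM in WT tumors. The enterocyte genes, 6 of 11 past the filter, summed to 19.6 to 213.4 CPM in null tumors and 107.8 to 357.4 CPM in WT tumors. Vil1 had 16.8 to 210.9 CPM in null tumors and 91.4 to 227.2 CPM in WT tumors. Apoa4 reached 0.106 CPM in null tumors and 177.0 CPM in WT tumors, Alpi 0.372 CPM in null tumors and 21.8 CPM in WT tumors, Fabp2 0.252 CPM in null tumors and 15.8 CPM in WT tumors, and Cdx2 22.7 CPM in null tumors and 10.8 CPM in WT tumors. Sis was at 0 in 8 tumors, Cdx1 in 7 and Apoa4 in 6, and for Apoa4 the lowest WT value was also 0. By mean log2 CPM, null 7 and null 14 were the lowest of all tumors for mesothelial markers, at -0.48 and 0.42. The same held for hepatocyte genes, at -0.44 and -0.68, and enterocyte genes, at -0.08 and -0.25. For the peritoneal macrophage list null 7 was lowest, at 0.59, and null 14 had 2.00. Islet markers differed, with 2.13 in null 14. The part of these cells in the factors' levels was not tested.

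Of 28 pairs of factors compared over the 9 tumors, 20 had a positive and 8 a negative correlation of log2 CPM. Gata6 and Foxa2 gave the closest relation, with Pearson's r = 0.92 (exact permutation p = 0.000896, adjusted p = 0.0251 over 28 pairs) and Spearman's rho = 0.82 (exact permutation p = 0.0108, adjusted p = 0.302). It was 0.65 without null 7 and null 14, the tumors farthest from the median of Gata6, and 0.91 with the group means removed. Hnf4a followed Foxa2 with r = 0.83 (exact permutation p = 0.0197, adjusted p = 0.138; rho = 0.58, exact permutation p = 0.108, adjusted p = 0.504) and Gata6 with r = 0.74 (exact permutation p = 0.0253, adjusted p = 0.142; rho = 0.35, exact permutation p = 0.359, adjusted p = 0.718). Without null 7 and null 14 these were -0.33 and -0.66, so both relations rest on those tumors. With the group means removed they were 0.81 and 0.72. Gata4 followed Hnf4g with r = 0.79 (exact permutation p = 0.0138, adjusted p = 0.129; rho = 0.72, exact permutation p = 0.0369, adjusted p = 0.303), 0.76 without null 14 and WT 9 and 0.81 with the group means removed, although Hnf4g is close to the limit of detection. It followed Hnf4a with r = 0.77 (exact permutation p = 0.0110, adjusted p = 0.129; rho = 0.70, exact permutation p = 0.0433, adjusted p = 0.303), 0.56 without null 14 and WT 9 and 0.74 with the group means removed. Foxa1 and Hnf4g had r = 0.61 (exact permutation p = 0.0841, adjusted p = 0.336). Their rho was 0.72 (exact permutation p = 0.0369, adjusted p = 0.303). Without WT 2 and WT 9 their r was 0.76, and it was 0.68 with the group means removed. All tumors share their cell makeup across genes, so such correlations describe these libraries and do not show that one factor acts on another.

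The genes whose centred log2 CPM profile over the 9 tumors lay nearest to each factor were named by root mean square difference. For Gata6 the nearest was Serpinb6b, a protease inhibitor, at 0.28, followed by Tcaf2 and Gal3st4, against a spread of Gata6 itself of 1.52. Hnf4a had Dennd5b at 0.24, Triqk and Tox, an HMG-box factor, with its own spread at 0.85. Foxa2 had Myzap at 0.35, Hspb2 and Fads3, and Gata4 had Dixdc1 at 0.26, Tent5c and Ttc22. For Foxa3 these were Myo1h at 0.20, Zfp455 and Zfp770, and for Pdx1 Eri1 at 0.16, Taf5l and Cdkn2aip. Hnf4g had Siglec1 at 0.62, Trpv4 and Adcy9. The nearest to Foxa1 was Ttc6 at 0.54, followed by D7Ertd443e and Atp7a. The factors' own spreads were 0.85 for Foxa2, 0.75 for Gata4, 0.67 for Foxa3, 0.38 for Pdx1, 1.73 for Hnf4g and 1.21 for Foxa1. Such genes were picked for being nearest among the tested genes, so a small difference is built into the choice. Ttc6 (chromosome 12, 57564113 to 57737928) is the neighbour of Foxa1 on the other strand, with its annotated span beginning 17.2 kb from that of Foxa1. It had 0.807, 0.894, 0.685, 2.27 and 1.52 CPM in null tumors 7, 14, 15, 18 and 23. In WT tumors 2, 3, 6 and 9 it had 0.669, 0.687, 0.346 and 3.86 CPM. WT 9 and null 18 were highest for both genes, but Ttc6 was picked because its profile lay nearest to that of Foxa1.

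Other transcription factors of foregut, pancreas and gut numbered 40, of which 26 passed the filter, and 0 were called by edgeR at the adjusted threshold. Of these 12 had a positive and 14 a negative log2 fold change, with a median of -0.15 beside -0.03 over all genes, and 1 higher and 3 lower had an unadjusted edgeR p under 0.05, against 7.64% and 10.0% of all genes. The bile acid receptor Nr1h4 had 1.03 ± 0.485 CPM in the null group and 3.57 ± 1.45 CPM in the WT group, with no overlap (edgeR adjusted p = 0.201), while such separation was seen for 3.49% of all genes in the lower direction. Sox17, an endoderm factor that vessels also make, had 4.11 ± 2.95 CPM in the null group and 27.1 ± 37.4 CPM in the WT group (edgeR adjusted p = 0.221). Bhlha15, the acinar factor MIST1, had 0.337 ± 0.205 CPM in the null group and 1.12 ± 0.409 CPM in the WT group (edgeR adjusted p = 0.222). Sox2, Ptf1a, Neurog3 and 11 others did not pass the filter.

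Among the remaining GATA factors and their FOG cofactors, 4 of 6 genes passed the filter and 0 were called by edgeR. Zfpm2, which encodes the GATA4 partner FOG2, had 21.6, 19.5, 11.6, 6.78 and 7.91 CPM in null tumors 7, 14, 15, 18 and 23, against 5.25, 0.773, 4.77 and 4.52 CPM in WT tumors 2, 3, 6 and 9. The groups did not overlap, as for 3.42% of all genes in the higher direction (log2 fold change 1.81, SE 0.56, edgeR adjusted p = 0.219), and null 7 and 14, low in Gata4, had the most. Gata5 had 0.353, 36.3, 34.8, 30.0 and 84.3 CPM in null tumors 7, 14, 15, 18 and 23, against 33.5, 21.0, 74.1 and 87.0 CPM in WT tumors 2, 3, 6 and 9. Null 7 thus held little of Gata5 as well as of Gata6. Gata2 and Zfpm1 had log2 fold changes of -0.56 and -0.23 (edgeR adjusted p of 0.377 and 0.812).

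Known target genes were counted from lists that were drawn up with earlier results of these data known. Of 21 HNF4 targets 11 passed the filter, and 10 of the 11 had a negative and 1 a positive log2 fold change. The median was -1.74 beside -0.03 over all genes, of which 52.2% were negative. None was called by edgeR at the adjusted threshold, and 5 had an unadjusted p under 0.05 in the lower direction, against 10.0% of all genes. The apolipoprotein gene Apoc2 had 3.98 ± 1.81 CPM in the null group and 19.5 ± 5.43 CPM in the WT group, with no overlap (edgeR adjusted p = 0.171). Of the 11 tested targets 1 was free of overlap, while such separation was seen for 3.49% of all genes in the lower direction. The microvillar protocadherin gene Cdhr2 had 1.60 ± 1.15 CPM in the null group and 11.7 ± 9.92 CPM in the WT group, and coagulation factor F7 had 5.56 ± 3.97 CPM in the null group and 20.6 ± 11.6 CPM in the WT group (both edgeR adjusted p = 0.201). Apoa1 had 0.380 ± 0.333 CPM in the null group and 20.3 ± 37.8 CPM in the WT group (edgeR adjusted p = 0.204), with the WT mean set by a single tumor at 77.0 CPM. Beside these, Hnf4a itself had a log2 fold change of -0.63. Many of the targets also mark liver and gut. Macrophage markers had negative fold changes for 10 of 10 genes tested, against 52.2% of all genes. They summed to 683.7 to 2154 CPM in null tumors and 1943 to 3843 CPM in WT tumors. Fold changes were negative too for every tested marker of neutrophils, T cells, B and plasma cells, fibroblasts, endothelium, and pericytes and smooth muscle. The part of these cells in the targets' values was not tested.

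FOXA targets passed the filter in 9 of 15 cases and GATA4 and GATA6 targets in 6 of 12, with 0 calls by edgeR in each. Their median log2 fold changes were -0.81 and -0.65, with 7 of 9 and 5 of 6 below 0, against 52.2% of all genes. Tff1 and Hnf4a stand in both lists. Tff1, a gastric trefoil peptide, had 170.1 ± 134.3 CPM in the null group and 915.2 ± 687.5 CPM in the WT group (edgeR adjusted p = 0.233), Tff2 had 194.0 ± 168.3 CPM in the null group and 577.5 ± 507.8 CPM in the WT group (edgeR adjusted p = 0.302), and the secretory chaperone Agr2 had 78.6 ± 66.9 CPM in the null group and 237.1 ± 285.9 CPM in the WT group (edgeR adjusted p = 0.425). Of 9 PDX1 targets only the islet genes Ins1, Nkx6-1 and Iapp passed the filter, with log2 fold changes of 2.34, 1.60 and 0.28 and SEs of 1.64, 1.34 and 1.60. The highest level among them was 15.9 CPM, for Ins1 in a null tumor, and each was at 0 in at least 1 tumor of each group.

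The classical and basal-like programmes that these factors are used to read were set beside them. Among classical genes 19 of 20 passed the filter, 18 with a negative fold change, against 52.2% of all genes, and none was called by edgeR. Their median log2 fold change was -1.78 beside -0.03 over all genes. In the lower direction 7 had an unadjusted edgeR p under 0.05, against 10.0% of all genes. The groups did not overlap for 2, against 3.49% of all genes. The mean level of that list was lowest in null 7, at 2.20 log2 CPM, and next lowest in null 14, at 4.19, against 4.59 to 5.45 in the other null tumors and 4.55 to 6.91 in WT tumors. The order matched Hnf4a at the low end and, with WT 9 highest, at the high end, but not between. WT 6 came next to WT 9 in the list, at 6.12, but was below WT 3 and null 23 for Hnf4a. Gata4 also had null 7 and null 14 lowest and WT 9 highest. Gata6 was lower in WT 9 than in any tumor but null 7 and null 14. The non-epithelial level too was lowest in null 7, at 1.89 log2 CPM, and highest in WT 9, at 4.82. Basal-like and squamous genes passed in 9 of 14 cases, with 5 above and 4 below 0 and a median of 0.52. Their level was highest in null 14, at 4.26, and was 1.17 in null 7, so the pair of tumors that shared low Gata6 and Hnf4a differed here. In that list 2 genes were higher and 1 lower with an unadjusted edgeR p under 0.05, against 7.64% and 10.0% of all genes. Of its members Ly6d had 192.2 ± 109.8 CPM in the null group and 29.5 ± 17.6 CPM in the WT group (edgeR adjusted p = 0.201), while Trp63 did not pass the filter.

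**Figure D5:**
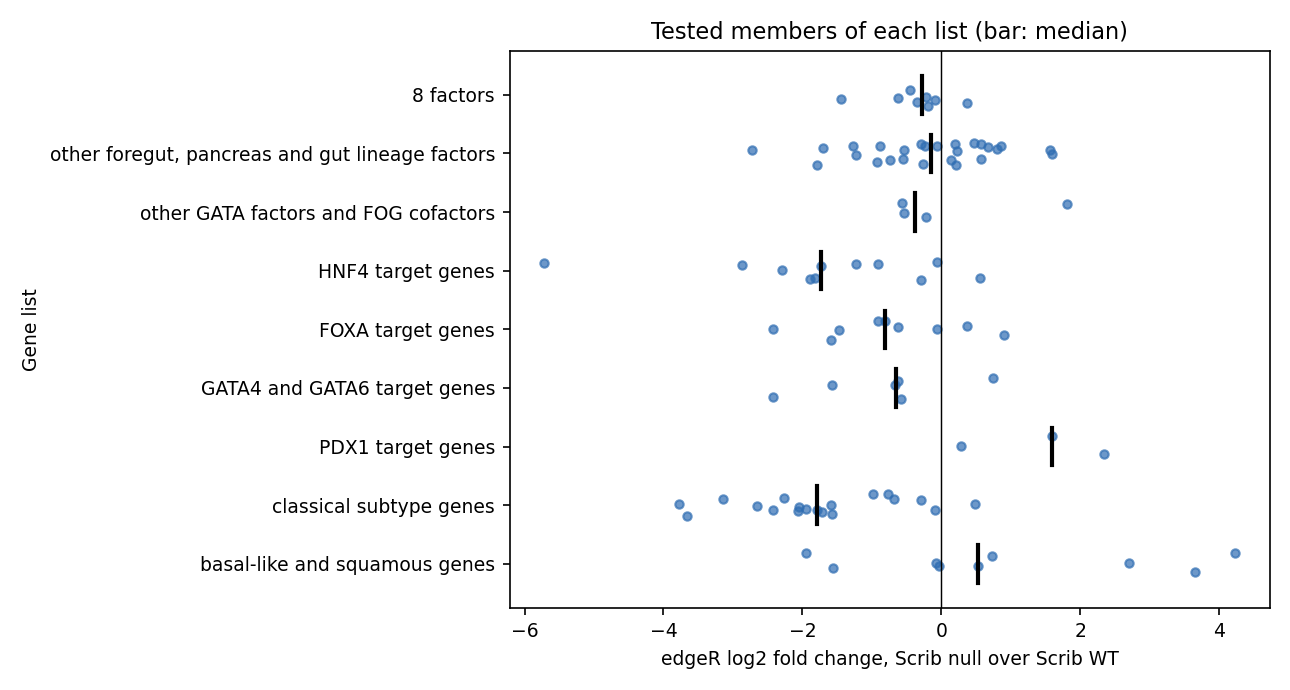
Log2 fold change, Scrib null over Scrib WT (horizontal axis), of every member that passed the filter (points), with the median of the list as a bar. The 8 factors have a median of -0.28, HNF4 targets -1.74, classical genes -1.78 and PDX1 targets 1.60, the last from 3 genes.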

How the data were processed

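RNA of 9 frozen whole tumors was extracted with a column kit and made into mRNA libraries, per the labels' protocols. The authors deposited 1 table of estimated counts, 1 column per tumor and 1 row per Ensembl gene, not normalized and partly fractional (46.6% of values above 0). Salmon 1.4.0, DESeq 2 and the builds GRCm38 and mm10 are named, per the submitters' processing notes. The annotation release and the strand of the libraries are not given in the sources used here.

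Symbols, spans and merged exon lengths came from GENCODE M21 (GRCm38), which matched 54131 of 54453 rows. No row lacked an identifier. Counts were rounded, which moved none by more than 0.5, and filtered by filterByExpr at a minimum count of 10 and a minimum total of 15, which left 16169 genes. Groups were compared in R 4.3.3 by the quasi-likelihood test of edgeR 4.0.16 with TMM scaling, 5 null against 4 WT tumors with no covariate, adjusted over all 16169 genes, with a threshold of 0.05. The SE is the log2 fold change over the square root of F. CPM used the TMM-scaled library and log2 CPM a prior count of 2. Permutation tests took all 126 splits of the tumors, with a smallest possible p of 0.00794, or all pairings for a correlation. Alternatives included DESeq2 1.42.0 and limma 3.58.1. On simulated counts for this comparison (16169 genes, 200 changed) edgeR made 48 calls, 2 of them false, and recovered 43% of the 4-fold and 3% of the 2-fold changes. All 16 pairs of libraries within a group differed beyond sampling noise, with a lowest chi-square over degrees of freedom of 76.6.

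The factors and gene lists were chosen with earlier results of these data known. Genes named were all 8 factors, Scrib, up to 4 members with the smallest p from each list described (1 gene is not reported here), the 3 nearest profiles to each factor (clone names and identifiers left out), and defining markers of other cells. Trp63, Msln, Vil1, Apoa4, Alpi, Fabp2, Cdx2 and the antisense transcripts, and which tumors to remark on, were chosen after their values were seen.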

Additional observations from a re-analysis of the deposited data

Results flagged for a closer look

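Foxa1 in tumor WT 9 stood far from the rest of its group, with 77.1 CPM against 5.15 to 7.16 CPM in the other 3 WT tumors. The gap to the nearest of them was 0.879 of the group's range on the log2 scale, above the 95% critical value of 0.829 for 4 samples. The 8 factors gave 16 groups to examine, and chance alone would mark about 1 in 20. WT 9 had the highest non-epithelial level, 4.82 log2 CPM, and an epithelial level of 8.93, inside the range of the other tumors. The part of either in the Foxa1 value was not tested.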

How the results depend on the processing

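No paired analysis was possible because the null and WT tumors share no replicate number. No factor was called by edgeR, DESeq2 or limma-voom in any of 21 alternatives, and 147 of 165 alternative log2 fold changes kept their sign without a call. In these, an adjusted p was given for all but Foxa1 with DESeq2. Hnf4g, with 0 to 95 estimated counts per tumor, dropped out of the test without null 18 or null 23 and with a minimum count of 30. The cause of the shifts below was not tested. Without adjustment, only Gata6 with the non-epithelial covariate and Foxa1 without WT 9 passed 0.05 in these fits.

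With the non-epithelial level as a covariate the sign turned for Gata4 (0.45), Gata6 (1.83), Hnf4a (0.44), Hnf4g (0.60), Foxa1 (1.30) and Foxa2 (0.67). The groups did not overlap in that level, so these values cannot separate group from level. Foxa3 turned with the epithelial level (0.58) and the tumor identifier range (0.043) as covariates. Foxa1 turned with limma-voom (0.33), the sex covariate (0.030) and the identifier range (0.50), and Gata6 without both WT 3 and null 7 (0.026). With each tumor left out the log2 fold change ran from -0.47 to 0.13 for Gata6, from -0.52 to 1.80 for Foxa1 and from -0.47 to 0.15 for Foxa3. The difference in mean log2 CPM ran, with each tumor left out, from -1.26 to 0.018 for Gata6, from -1.32 to 0.52 for Hnf4g, from 0.34 to 1.63 for Foxa1 and from -0.50 to 0.16 for Foxa3. That of Foxa1 was 1.63 without WT 9 (exact two-sided permutation p = 0.0357), and that of Hnf4g was 0.0052 with a prior count of 0.5. Without the 2 farthest tumors the correlation was -0.56 for Gata4 and Foxa3, -0.66 for Gata6 and Hnf4a, -0.32 for Gata6 and Foxa1, -0.33 for Hnf4a and Foxa2, 0.60 for Hnf4a and Pdx1, 0.035 for Hnf4g and Foxa3, 0.0087 for Foxa1 and Foxa2 and -0.22 for Foxa1 and Foxa3.

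Over all genes, edgeR called 0 higher and 2 lower. With no low-count filter it called 1 and 6, DESeq2 called 212 and 413, and limma-voom 1 and 5. The lower count was 0 with the epithelial, non-epithelial or identifier covariate and without both WT 3 and null 7, 1 with the sex covariate, and 0 to 1 with each tumor left out.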

Other observations

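Antisense transcripts overlap 3 of the factors, and their levels were set beside them because the strand of the reads is not known here. 1010001N08Rik, on the strand opposite Gata6, had 0.101, 0.473, 2.22, 0.856 and 1.66 CPM in null tumors 7, 14, 15, 18 and 23, against 2.48, 1.63, 2.66 and 0.608 CPM in WT tumors 2, 3, 6 and 9. It was lowest in null 7 and null 14, the tumors lowest in Gata6. Hnf4aos, opposite Hnf4a, did not pass the filter and reached 0.172 CPM at most, in WT 3.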
